A study of Mus musculus with 6 samples.

Results

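Mouse chromosome 10 was examined because RNA from most of its genes was low together in 1 of the 3 fx/fx tumor libraries of the series. The set was chosen by measured values: it holds the protein-coding genes whose first position in the count files (GRCm38) is on chromosome 10 and whose mean log2 CPM over the 6 libraries was over 3. CPM is counts per 1000000 counts of a library, so the floor lies at 8 CPM, or about 425 counts in the deepest library. Of 1020 protein-coding genes on the chromosome 483 passed, 537 lay at or under the floor, and all 483 also passed the count filter of the genotype test. The whole series held 54232 gene identifiers, among them 9990 protein-coding genes over the floor. Because the chromosome was selected on the shift of one library, the values of that library against wt/wt are given as a description, with no test.

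All 6 libraries came from tumors of mice labelled NIC+. In NIC mice the MMTV promoter expresses activated ErbB2 (Neu) and Cre from a single transcript in mammary epithelial cells, so oncogene and recombinase occur in the same cells. The wt/wt libraries (wt1, wt2 and wt3) are CdGAP wt/wt, the fx/fx libraries (fx1, fx2 and fx3) are CdGAP fx/fx, and both groups carry NIC and thus Cre. CdGAP is encoded by Arhgap31 and turns off the small GTPases Cdc42 and Rac1. Only cells that express the transgene can lose a floxed gene, so stromal, vascular and immune cells of an fx/fx tumor still have theirs. The labels give no age, and they do not state whether each library stands for its own animal, so every p-value below measures the spread between these samples. Total counts ran from 36732137 (fx2) to 53606276 (fx1).

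Mouse chromosomes have their centromere at one end, so a chromosome is a single long arm. In tumors with unstable genomes whole chromosomes or long stretches are gained or lost, and RNA of the genes on them is known to follow the number of copies in part, gene by gene. RNA from cells of the tumor that keep a normal genome does not follow it. DNA was not analysed here, so copy number was not tested. Mouse chromosome 10 carries several genes of interest in ErbB2 tumors: Erbb3, the partner receptor of ErbB2, Esr1, the estrogen receptor alpha, the cell cycle kinase gene Cdk4, and Mdm2, whose product degrades p53.

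The results turn on 2 kinds of member, those low in fx1 and those that were not, and promoters of both kinds are shown so that their base composition can be compared. Each is the stretch just upstream of the start site, from the RefSeq promoter table on GRCm38.p6, printed from the far end to the start site on the gene's own strand, with each CpG dinucleotide in capitals. The 4 genes were chosen after their values were seen. Cfd (chr10:79890603-79890852, plus strand) and Col18a1 (chr10:77166549-77166780, minus strand) were above every wt/wt library in fx1, and Cdk4 (chr10:127063285-127063533, plus strand) and Thop1 (chr10:81069833-81070034, plus strand) were below all of them.
Cfd: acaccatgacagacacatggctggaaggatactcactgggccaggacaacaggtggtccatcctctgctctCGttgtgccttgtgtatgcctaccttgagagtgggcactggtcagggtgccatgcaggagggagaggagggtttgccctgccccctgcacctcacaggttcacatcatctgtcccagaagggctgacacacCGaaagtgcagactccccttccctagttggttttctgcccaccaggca
Col18a1: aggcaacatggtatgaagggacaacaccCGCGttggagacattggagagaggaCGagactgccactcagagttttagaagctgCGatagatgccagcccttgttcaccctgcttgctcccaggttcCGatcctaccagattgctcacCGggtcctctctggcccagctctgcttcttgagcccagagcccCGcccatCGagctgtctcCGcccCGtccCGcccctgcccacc
Cdk4: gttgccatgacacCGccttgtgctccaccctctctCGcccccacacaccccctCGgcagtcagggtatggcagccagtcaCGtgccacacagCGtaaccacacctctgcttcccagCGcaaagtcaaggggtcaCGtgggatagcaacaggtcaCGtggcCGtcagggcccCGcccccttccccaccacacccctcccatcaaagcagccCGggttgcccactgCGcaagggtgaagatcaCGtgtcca
Thop1: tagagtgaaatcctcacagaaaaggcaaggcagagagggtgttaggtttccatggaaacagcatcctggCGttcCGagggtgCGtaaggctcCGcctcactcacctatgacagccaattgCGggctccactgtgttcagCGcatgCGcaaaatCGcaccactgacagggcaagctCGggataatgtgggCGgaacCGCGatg

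The Cfd stretch holds 2 CpG in 250 bases, that of Col18a1 11 in 232, that of Cdk4 13 in 249 and that of Thop1 12 in 202. In these stretches the ratio of found to expected CpG was 0.10, 0.53, 0.54 and 0.76 in that order. Only Thop1 was thus over the mark of 0.6 used next. Over the 250 bases upstream of the start site, 409 members had a promoter in the table and 74 did not. A ratio of found to expected CpG over 0.6, the usual mark of a CpG-rich promoter, was seen in 75.6% of these members (309 of 409), against 34.0% of all 32851 promoters of the table, which often lists several per gene. Of members above every wt/wt library in fx1, 51.6% (16 of 31) had such a promoter. The share was 73.8% (45 of 61) for members within the wt/wt range and 78.2% (248 of 317) for members below it. The motif TATAAA, searched on both strands, occurred in 6.11% of members (25), in 1 of the 31 members above the wt/wt libraries, in 5.68% of those below and in 12.4% of all promoters. These shares are a description of the letters in this window, with no test. The promoters of the table were not filtered by expression, whereas all members lie over the floor. Expressed genes of other chromosomes were not compared, so nothing particular to chromosome 10 is read from the shares.

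Arhgap31, on chromosome 16, was at 664, 432 and 549 CPM in the wt/wt libraries (in the order of their numbers, as everywhere below) and at 155, 44.1 and 115 CPM in the fx/fx libraries, so the labels held for the targeted gene. Summed levels of 10 luminal epithelial marker genes lay between 4150 and 5047 CPM in wt/wt and between 4372 and 5941 CPM in fx/fx, and all 10 were over 1 CPM in every library. Summed T and NK cell markers (9 genes) did not exceed 30.4 CPM and B and plasma cell markers (7 genes) did not exceed 2.04 CPM in any library. The 483 members took 5.61%, 5.57% and 5.82% of all protein-coding counts in wt1, wt2 and wt3, 3.58% in fx1, and 5.58% and 5.70% in fx2 and fx3. The fx1 library thus stood apart in the share of its RNA that came from the chromosome, while fx2 and fx3 lay within the wt/wt values.

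**Figure D1:**
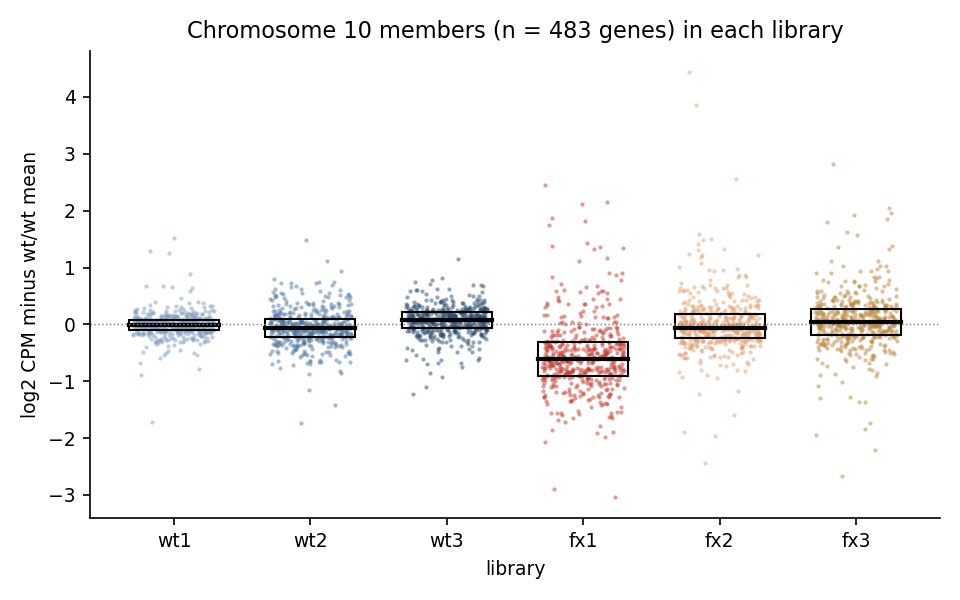
Difference of each chromosome 10 member from its wt/wt mean (log2 CPM, vertical axis) in the 6 libraries (horizontal axis); points are the 483 genes, boxes span the quartiles and thick lines are medians. The fx1 box lies wholly below 0, with a median of -0.61, while the other 5 medians lie between -0.07 and 0.08.

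The level of each member was expressed relative to its own wt/wt mean on the log2 CPM scale. The median difference over the 483 members was -0.61 in fx1, against -0.01, -0.07 and 0.08 in the wt/wt libraries and -0.06 and 0.04 in fx2 and fx3. Only the fx1 value lay outside the wt/wt values, whose SD was 0.074 (n = 3). At the median member, fx1 held 65.4% of the wt/wt level, or 34.6% less as a share of the library. In bulk tumor RNA, fewer cells of a type and less RNA per cell cannot be told apart. The interquartile range (IQR) over members was 0.587 in fx1, 0.1804 to 0.319 in wt/wt, 0.420 in fx2 and 0.453 in fx3.

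Most members took part in the shift. In fx1, 418 of the 483 (86.5%) were below their wt/wt mean and 65 were at or above it. Set against single libraries, 373 members (77.2%) were below all 3 wt/wt libraries, where 35.7% of all protein-coding genes over the floor were. Only 36 members (7.45%) were above all 3, where 32.4% of all such genes were, and 74 were in between. Since the chromosome was chosen for this contrast, nothing is read from the distance between these shares. For 306 members the fx1 value was more than 2 of the gene's own wt/wt SDs below the mean. The median member had a wt/wt SD of 0.208.

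The spread around the shifted centre lay within that of the other chromosomes. From the 5th to the 95th percentile, differences in fx1 ran from -1.45 to 0.58 on chromosome 10 and from -0.86 to 1.20 over 8021 genes on the 17 chromosomes other than 4, 10 and 11. The IQR was 0.587 against 0.617 on those chromosomes, where it ranged from 0.537 to 0.732. Within 0.5 of their own median lay 69.98% of the members and 68.96% of the genes elsewhere. The distribution as a whole was displaced by -0.68 relative to the other chromosomes, whose median was 0.07. Medians of those 17 chromosomes in fx1 ranged from -0.10 to 0.36, and between 26.2% and 58.9% of their genes were below the wt/wt mean.

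**Figure D2:**
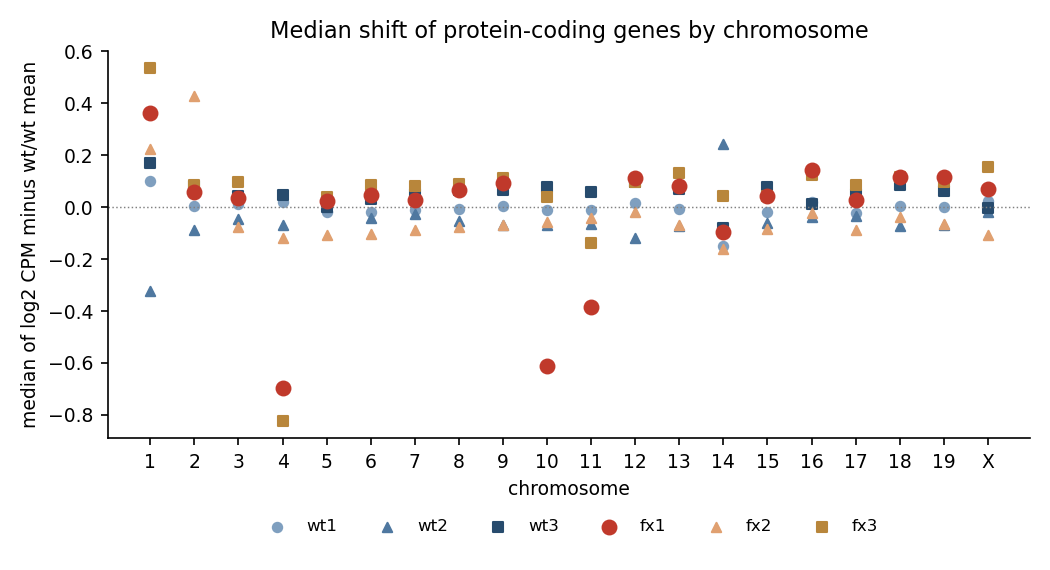
Median difference from the wt/wt mean (log2 CPM, vertical axis) over protein-coding genes above the floor, by chromosome (horizontal axis) and library (symbols). In fx1, chromosomes 4 (-0.70), 10 (-0.61) and 11 (-0.38) lie lowest, and on chromosome 10 no other library leaves the range from -0.07 to 0.08.

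Chromosomes 4 and 11 were the most alike. Chromosome 4 (646 genes) had a median of -0.70 in fx1, an IQR of 0.586 and 90.2% of genes below the wt/wt mean, but it was also low in fx3, at -0.82. Chromosome 11 (827 genes) had a median of -0.38 and a wider IQR of 0.845 in fx1. Between 60 and 80 Mb, its 200 genes had a median of -0.62, an IQR of 0.612 and 88% below, close to the values of the whole of chromosome 10. Chromosome 10 differed from chromosome 4 in that fx3 was at 0.04. These differences between chromosomes were not tested, since all rest on the same 3 wt/wt libraries.

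Along the chromosome the low values extended nearly from end to end. In 5 Mb bins, 24 bins had at least 5 members and 2 had fewer. In 22 of the 24 the fx1 median was below -0.4 and below that of every other library. The first member, Mthfd1l (3973118 to 4167081), was at -0.55 and the last, Bloc1s1 (128917882 to 128924035), at -1.10. The lowest bin was 105 to 110 Mb, at -0.91 (5 members), in which Ppp1r12a, encoding the targeting subunit of myosin phosphatase, and Pawr, encoding a pro-apoptotic regulator, lie. The bins with the most members were at -0.79 from 80 to 85 Mb (74 members, 68 of them below 0), at -0.51 from 75 to 80 Mb (63 members, 51 below 0) and at -0.74 from 125 to 130 Mb (60 members, 57 below 0). All 12 members from 30 to 35 Mb were below 0.

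**Figure D3:**
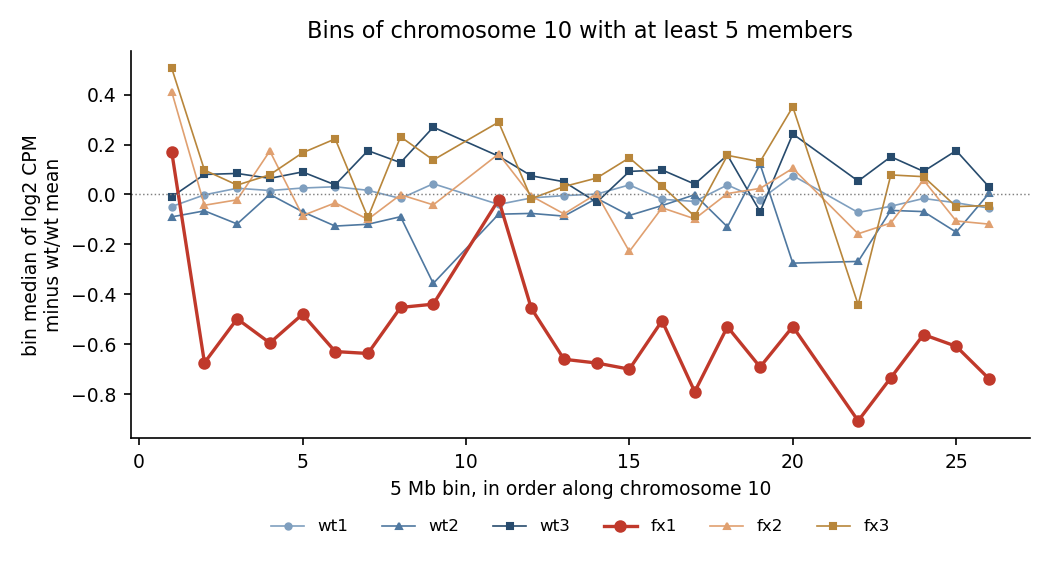
Median difference from the wt/wt mean (log2 CPM, vertical axis) in each 5 Mb bin with at least 5 members, in order along chromosome 10 (horizontal axis, bin number), by library. The fx1 line lies under -0.4 in 22 of 24 bins and approaches the other libraries in the first and the eleventh bin.

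The 2 exceptions were small bins. From 0 to 5 Mb (6 members: Mthfd1l, Akap12, Zbtb2, Rmnd1, Armt1 and Esr1) the fx1 median was 0.17, but fx2 and fx3 were higher still, at 0.41 and 0.51. Members of this bin differed, since Mthfd1l and Rmnd1 were at -0.55 and -0.53 while Esr1 was at 1.82. From 50 to 55 Mb (8 members) the median was -0.02 in fx1 (0.16 in fx2, 0.29 in fx3). There Ascc3 was at -1.10 and Mcm9, a replication helicase gene, at -0.83, next to Man1a at 2.15. The genes of these bins and of the lowest bin were named after their values were seen. The first bin was the highest of all. With 10 Mb bins, or with a floor of 5, which leaves this bin under 5 members, the highest bin median on the chromosome was -0.44 or -0.31 and came from other genes.

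Members that did not follow the shift lay scattered among those that did. The 65 members at or above 0 formed 55 runs along the chromosome, of which 47 were a single gene. The longest run of them was 3 members, from Armt1 to Syne1 (starts at 4432467 and 5020917). The longest run below 0 was 37 members, from Abhd17a to Gna11 (starts at 80583654 and 81528724). A running median over 15 neighbouring members stayed between -0.91 and -0.22 in fx1. Every stretch of that length thus had a median below the wt/wt mean.

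The fx1 median was below 0 in every class of level, GC content, transcript length and genomic span. Members were divided into 3 classes of equal size by each property. By mean level, the classes had fx1 medians of -0.58 (lowest), -0.61 and -0.66 (highest). Relative to genes of the same level on other chromosomes these were -0.63, -0.69 and -0.75. By GC content of the transcript the medians were -0.63, -0.57 and -0.63. By transcript length they were -0.68 (shortest), -0.59 and -0.53 (longest). By genomic span they were -0.75 for the class of the shortest genes and -0.51 for that of the longest, but genes of other chromosomes varied in the same way, so that the differences from them were -0.74, -0.69 and -0.69. Of the 36 members above every wt/wt library, 23 were in the class of the longest span and 4 in that of the shortest. The same count was not made for genes of other chromosomes. Their fx1 medians were -0.01 in the class of the shortest span and 0.18 in that of the longest. The class whose wt/wt libraries differed most had a median of -0.44 and the widest IQR, 1.03, with 73.3% of its members below 0.

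**Figure D4:**
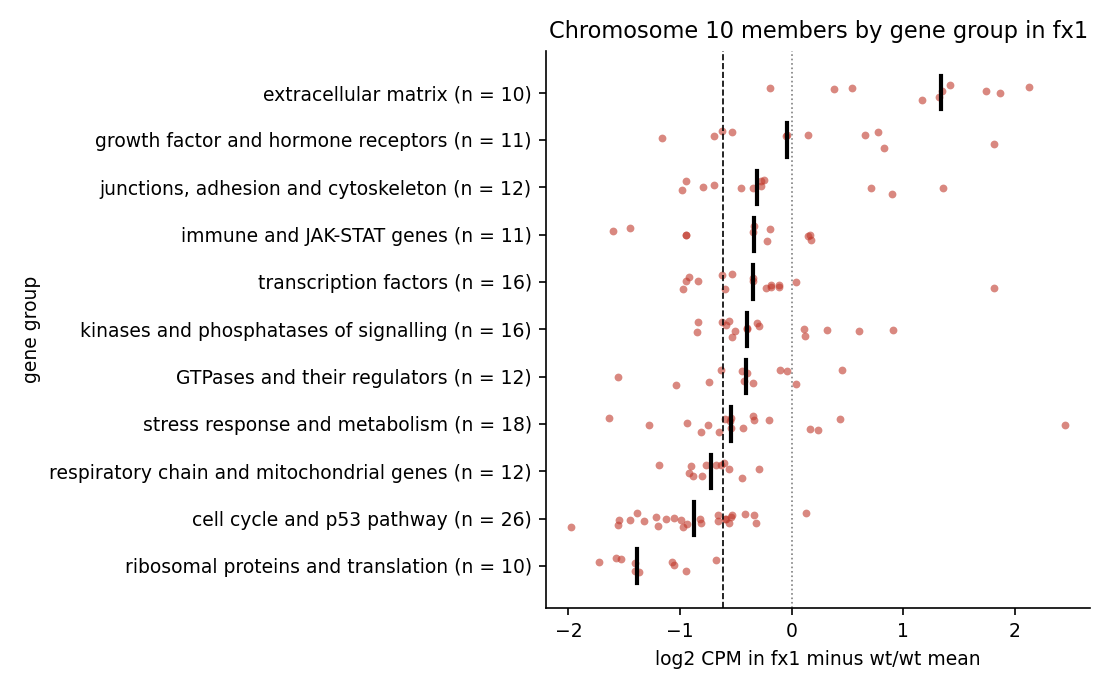
Difference of fx1 from the wt/wt mean (log2 CPM, horizontal axis) for members in 11 groups of genes (vertical axis); points are genes, thick bars group medians, the dashed line the chromosome median of -0.61. Matrix genes (median 1.34) lie on the opposite side of the chromosome median from translation genes (-1.39).

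Genes of protein synthesis were the lowest group. Counts in this and the later lists can be set beside the shares over all members in fx1. Of these, 77.2% were below every wt/wt library and 7.45% above, against 35.7% and 32.4% of all protein-coding genes over the floor. All 10 measured members of the translation list (10 on the chromosome) were below every wt/wt library in fx1, with a median of -1.39, against -0.21 in fx2 and -0.18 in fx3. Eef2, the elongation factor that moves the ribosome along mRNA (81176631 to 81182498, plus strand), measured 4765, 4683 and 4966 CPM in wt/wt and 1813, 4107 and 4239 CPM in fx/fx. Rps15, a small-subunit ribosomal protein gene, measured 695, 787 and 789 CPM in wt/wt and 254, 668 and 678 CPM in fx/fx. In both genes fx1 was far below the others and fx2 and fx3 were slightly under the wt/wt range. Rps26, Rps12, Rpl41 and Eif4ebp2, the last a repressor of cap-dependent translation, lay between -0.95 and -1.72 in fx1. Ribosomal protein genes off chromosome 10 were low in fx1 too, in a set that did not leave out chromosomes 4 and 11. The 73 genes had a median of -0.87, all below 0, where the 4 on chromosome 10 had -1.55. In fx2 and fx3 the 73 genes were at -0.15 and -0.04. No member of the list passed an unadjusted p of 0.05 in the genotype test, in which 6.04% of all genes were lower and 8.18% higher.

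Respiratory chain and mitochondrial genes were close to the chromosome as a whole. All 12 measured (of 13 on the chromosome) were below 0 and 10 were below every wt/wt library, with a median of -0.73 in fx1 (-0.14 in fx2, 0.19 in fx3). Atp5b, the catalytic subunit of ATP synthase, measured 1360, 1190 and 1622 CPM in wt/wt and 809, 1440 and 1649 CPM in fx/fx. Slc25a3, the mitochondrial phosphate carrier, was at -0.57, Atp5d at -0.81, the citrate synthase gene Cs at -0.61, the complex III gene Uqcr11 at -1.19 and the complex I gene Ndufs7 at -0.63. Every one of these 6 was below all wt/wt libraries in fx1.

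Cell cycle and p53 pathway genes were nearly uniform in direction in fx1, but not in size, with differences from -1.98 to 0.13. Of 26 measured (28 on the chromosome), 25 were below 0 in fx1, 24 were below every wt/wt library and 0 were above, with a median of -0.88 against 0.01 in fx2 and 0.12 in fx3. Cdk19 was the exception, at 0.13, named after its value was seen. Cdk4, the cyclin D kinase (127063534 to 127067920, plus strand), measured 177, 217 and 203 CPM in wt/wt and 91.0, 235 and 240 CPM in fx/fx. The fx1 level was 45.9% of the wt/wt mean, while fx2 and fx3 were above all 3 wt/wt libraries. Cdk1, the mitotic kinase, measured 93.7, 144 and 60.7 CPM in wt/wt and 31.9, 89.0 and 121 CPM in fx/fx. Mdm2 (117688875 to 117710758, minus strand) measured 57.0, 61.9 and 63.4 CPM in wt/wt and 41.6, 72.2 and 63.8 CPM in fx/fx, and was at -0.54 in fx1. The antiproliferative gene Btg1 was at -1.33, the chromatin remodeller subunit Smarcc2 at -1.06, Pa2g4 at -1.38 and Foxo3 at -0.97. A list of 16 proliferation genes off chromosome 10, with chromosomes 4 and 11 not left out, was added after the data were seen. The medians of these genes were 0.06, 0.50 and -0.55 in wt/wt and -0.87, -0.02 and 0.34 in fx1, fx2 and fx3. Their part in the low values of the cell cycle members was not tested. No member of the cell cycle list passed an unadjusted p of 0.05.

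**Figure D5:**
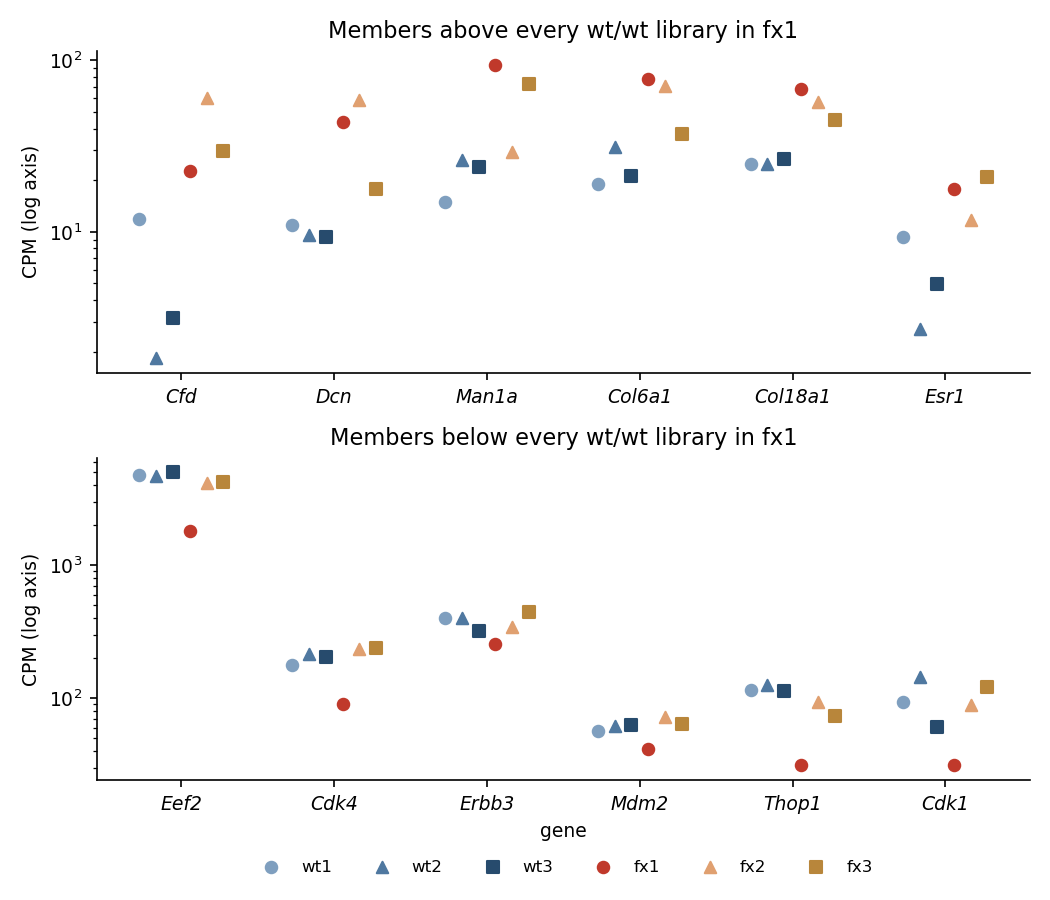
CPM (log axis, vertical) of 6 members above every wt/wt library in fx1 (upper panel) and 6 members below (lower panel), by gene (horizontal axis), 1 point for each of the 6 libraries. In the lower panel fx1 is the lowest library for Cdk4 (91.0 CPM), Eef2 (1813 CPM) and Cdk1 (31.9 CPM). In the upper panel fx2 and fx3 are also above the wt/wt libraries for all 6 genes.

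Growth factor and hormone receptors and their ligands were split. Of 11 measured (16 on the chromosome), 6 were below 0 in fx1, 4 below every wt/wt library and 5 above, with a median of -0.04 in fx1 (0.29 in fx2, 0.13 in fx3). Erbb3 (128567523 to 128589652, minus strand) measured 398, 399 and 322 CPM in wt/wt and 256, 343 and 445 CPM in fx/fx. Its fx1 value was under the wt/wt range, fx2 within it and fx3 above it, so the genotypes overlapped. Kitl, the stem cell factor that binds Kit, measured 206, 205 and 247 CPM in wt/wt and 97.7, 132 and 166 CPM in fx/fx, all 3 fx/fx libraries being below all wt/wt libraries (edgeR log2 fold change -0.73 with SE 0.23, unadjusted p = 0.013, adjusted p = 0.239). Ptprk, a receptor phosphatase, was at -0.70, Frs2, the FGF receptor adaptor, at -0.62 and Nab2, a corepressor of Egr factors, at -0.05. The 5 above were Esr1, Lrp1, Ptprb, Igf1 and Ifngr1.

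Esr1 (4611593 to 5005614, plus strand) measured 9.37, 2.72 and 4.98 CPM in wt/wt and 17.9, 11.8 and 20.9 CPM in fx/fx. Every fx/fx library was above every wt/wt library (edgeR log2 fold change 1.57 with SE 0.47, unadjusted p = 0.011, adjusted p = 0.229). Lrp1, an endocytic receptor of the LDL receptor family, measured 50.7, 59.6 and 28.9 CPM in wt/wt and 78.8, 89.4 and 57.7 CPM in fx/fx. Ptprb, the endothelial receptor phosphatase, was at 0.78, Igf1 at 0.66 and Ifngr1, the interferon gamma receptor, at 0.14 in fx1. For Ptprb, Igf1 and Ifngr1 the fx3 value lay within the wt/wt range.

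Signalling kinases and phosphatases followed the chromosome in most cases. Of 16 measured (19 on the chromosome), 11 were below every wt/wt library in fx1 and 3 were above. Over all members these shares were 77.2% and 7.45%. The list median was -0.40 in fx1, against 0.11 in fx2 and 0.02 in fx3. Csnk1g2, Pip4k2c and Stk11, the last the LKB1 kinase that activates AMPK, were at -0.40, -0.51 and -0.56. Dusp6, the ERK phosphatase, measured 794, 412 and 1186 CPM in wt/wt and 794, 777 and 1102 CPM in fx/fx, so all fx/fx values lay within the wt/wt range. Akap12, a scaffold of protein kinase A, was within the range too, at 0.11. Those above were Sgk1, a kinase induced by serum and glucocorticoids (66.9, 46.8 and 121 CPM in wt/wt against 136, 117 and 157 CPM in fx/fx), Fyn, a Src family kinase, at 0.61, and Map3k5, the stress kinase ASK1, at 0.32.

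Most genes of GTPases and their regulators were low in fx1, and no member of the list was above every wt/wt library there. The same was true of the translation, respiratory chain, cell cycle and immune lists. Over all members, 7.45% were above every wt/wt library and 77.2% below. With so small a share above, nothing particular to this list is read from its count of 0. Of 12 measured (15 on the chromosome), 10 were below 0 in fx1, 7 were below every wt/wt library, with medians of -0.41 in fx1 (-0.11 in fx2, -0.21 in fx3). At an unadjusted edgeR p under 0.05, in a fit that contains fx1, 3 members were lower and 0 higher, where 6.04% and 8.18% of all genes were. Rassf3, a Ras association domain gene, measured 1333, 1133 and 1448 CPM in wt/wt and 633, 955 and 907 CPM in fx/fx, all fx/fx below all wt/wt (edgeR adjusted p = 0.305). The others were Arhgef25, an exchange factor gene (35.3, 54.1 and 42.7 against 25.9, 26.9 and 30.5 CPM), and Arhgap18, a GTPase-activating protein gene (40.9, 33.4 and 30.1 against 22.3, 27.4 and 25.3 CPM), both named after their values were seen. Arfgef3 was at -1.56, the GTPase genes Rab5b and Rab21 at -0.42 and -0.45, R3hdm2, which is in the list but is not known as a regulator of GTPases, at -0.35, and Rap1b, a GTPase gene of integrin adhesion, at -0.11 within the wt/wt range.

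Transcription factor genes were lower in fx1 by less. Of 16 measured (27 on the chromosome), 14 were below 0, 11 below every wt/wt library and 1, Esr1, above in fx1. Over all members, 77.2% were below every wt/wt library and 7.45% above. The list median was -0.35 in fx1 (0.19 in fx2, 0.07 in fx3). Nfic, a nuclear factor I gene, was at -0.84, Tcf3 at -0.63, Jmjd1c at -0.53, Stat6 at -0.35 and Zbtb7a at -0.23. Foxo3 measured 156, 171 and 146 CPM in wt/wt and 80.01, 237 and 300.0 CPM in fx/fx, so fx1 lay under and fx2 and fx3 above the wt/wt libraries.

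Immune and JAK-STAT genes were lower in fx1 in most cases. Of 11 measured (20 on the chromosome), 8 were below 0 in fx1, 6 below every wt/wt library and 0 above. Over all members, 77.2% were below every wt/wt library and 7.45% above. The list median was -0.34 in fx1 (0.43 in fx2, -0.30 in fx3). Socs2, a feedback inhibitor of growth hormone and prolactin signalling, measured 571, 330 and 742 CPM in wt/wt and 269, 509 and 422 CPM in fx/fx. Cd24a, a surface antigen of mammary epithelium, measured 165, 79.7 and 150 CPM in wt/wt and 141, 349 and 487 CPM in fx/fx (edgeR adjusted p = 0.278). It was within the wt/wt range in fx1 and above it in fx2 and fx3. Mif, a cytokine, was at -0.34, Cd164 at -0.22, and Lyz2, the macrophage lysozyme, at 0.17. Summed macrophage markers (10 genes, 1 of them on chromosome 10) were 585, 572 and 495 CPM in wt/wt and 631, 758 and 332 CPM in fx/fx.

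Metabolic and stress genes included both kinds of member. Of 18 measured (25 on the chromosome), 14 were below 0 in fx1, 12 below every wt/wt library and 2, Cfd and Slc16a7, above. Over all members, 77.2% were below every wt/wt library and 7.45% above. The list medians were -0.54, -0.01 and -0.04 in fx1, fx2 and fx3. Psap, the precursor of the lysosomal saposins, measured 3075, 2406 and 2697 CPM in wt/wt and 1612, 2420 and 2201 CPM in fx/fx. Hk1, hexokinase 1 (62268855 to 62379908, minus strand), measured 876, 522 and 1226 CPM in wt/wt and 650, 926 and 1155 CPM in fx/fx, so its value of -0.34 in fx1 lay within the wt/wt range. Hsp90b1, the chaperone GRP94 of the endoplasmic reticulum, was at 0.23 and also within the range. Bsg, which escorts lactate transporters to the membrane, was at -0.43 and Os9 at -0.55. Slc16a7, a lactate and pyruvate transporter, was at 0.44 in fx1 but measured 6.37 CPM in fx2, under all wt/wt libraries (9.88, 18.3 and 16.5 CPM).

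Junction, adhesion and cytoskeleton genes had a median of -0.31 in fx1 (0.05 in fx2, 0.20 in fx3). Of 12 measured (20 on the chromosome), 8 were below every wt/wt library and 3 above in fx1. Over all members these shares were 77.2% and 7.45%. Ank3, ankyrin G, was at -0.98, Nedd1, a centrosome gene, at -0.94, Tspan8, a tetraspanin, at -0.79, Marcks at -0.45, Myl6, a myosin light chain, at -0.35 and Utrn, utrophin, at -0.25. Those above were Cnn2, calponin 2, Gja1, which encodes connexin 43, and Syne1, a nuclear envelope protein that binds actin. Syne1 measured 12.4, 20.02 and 16.2 CPM in wt/wt and 26.1, 39.8 and 47.5 CPM in fx/fx. Gja1 measured 8.79, 11.8 and 12.0 CPM in wt/wt and 20.1, 26.8 and 13.6 CPM in fx/fx. In both genes all fx/fx libraries were above all wt/wt libraries.

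The extracellular matrix list held the largest block of members that escaped. Of 10 measured (20 on the chromosome), 7 were above every wt/wt library in fx1 and 1, Lama4, was below, with a median of 1.34 in fx1 (1.02 in fx2, 0.75 in fx3). At an unadjusted edgeR p under 0.05, 5 of the 10 were higher and 0 lower, where 8.18% and 6.04% of all genes were. After adjustment over all genes, edgeR called 0 of the 10 and DESeq2 called Dcn, Col18a1, Col6a2 and Col6a1. Both fits contain fx1, on which the chromosome was selected. Col6a1 (76708792 to 76726168, minus strand), a chain of type VI collagen, measured 19.1, 31.3 and 21.1 CPM in wt/wt and 78.1, 70.5 and 37.1 CPM in fx/fx. Its neighbour Col6a2 (76595762 to 76623630, minus strand) measured 18.6, 34.1 and 20.9 CPM in wt/wt and 86.4, 66.8 and 44.1 CPM in fx/fx. Both of these chains were above the wt/wt range in all 3 fx/fx libraries and highest in fx1.

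Col18a1 (77052178 to 77166548, minus strand), the basement membrane collagen that yields endostatin, measured 24.8, 24.8 and 26.6 CPM in wt/wt and 68.2, 57.5 and 45.1 CPM in fx/fx. It had the smallest edgeR p of the members (log2 fold change 1.16 with SE 0.20, unadjusted p = 4.69e-04), with an adjusted p of 0.153 in edgeR and 0.001 in DESeq2. Dcn, decorin (97479609 to 97518143, plus strand), a proteoglycan of fibroblasts, measured 10.96, 9.58 and 9.38 CPM in wt/wt and 43.5, 58.8 and 17.9 CPM in fx/fx (edgeR adjusted p = 0.170). Timp3, an inhibitor of metalloproteinases, was at 1.33 in fx1 but at 0.03 in fx3, and Enpp1, an ectonucleotidase, was at 1.35 in fx1 and -0.19 in fx2. Ntn4, netrin 4, was at 1.17 and P4ha1, a collagen prolyl hydroxylase subunit, at 0.54, within the wt/wt range. Lama4, a laminin chain of vessel walls, measured 120, 148 and 112 CPM in wt/wt and 110, 196 and 223 CPM in fx/fx.

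Summed markers of fibroblasts, endothelial cells and adipocytes were also higher in fx1. For 10 fibroblast markers, 2 of them on chromosome 10, summed CPM was 434, 564 and 324 in wt/wt. In fx1, fx2 and fx3 it was 1074, 1621 and 873. Of the 10, 9 were above every wt/wt library in fx1, where 32.4% of all protein-coding genes over the floor were. For 10 endothelial markers, none on the chromosome, the sums were 172, 143 and 172 CPM in wt/wt and 350, 297 and 181 CPM in fx/fx, with 10 of 10 above in fx1. For 8 adipocyte markers, including Cfd, they were 58.3, 19.04 and 24.3 CPM in wt/wt and 79.4, 244 and 108 CPM in fx/fx. Of these 8, 5 were above every wt/wt library in fx1, and only 3 were over 1 CPM in every library. For 8 markers of basal or myoepithelial cells, which are not stromal, the sums were 22.3, 25.9 and 27.4 CPM in wt/wt and 52.6, 62.5 and 33.0 CPM in fx/fx. Only 3 of these 8 were over 1 CPM in every library. Most of the sum was Acta2, at 14.8, 16.9 and 20.9 CPM in wt/wt and 36.0, 48.4 and 22.1 CPM in fx/fx. Luminal epithelial, T and NK cell, and B and plasma cell sums lay within the wt/wt range in fx1. The mast cell sum was lower there, at 562 CPM against 621 to 1381 in wt/wt, but 556 CPM of it was Kit. Of the 8 mast cell markers, 7 were above every wt/wt library in fx1, though only 1 was over 1 CPM in every library. The erythroid sum was higher, at 627 CPM against 119 to 296. The part of these cell types in the values of the matrix members was not tested. Without the 12 members that are cell type markers or matrix genes the chromosome median in fx1 was -0.62, and 28 members were above every wt/wt library.

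Outside the matrix list, the members farthest above the wt/wt mean in fx1 belonged to several classes. Cfd, adipsin, the complement factor D made by fat cells (79890853 to 79892655, plus strand), measured 11.9, 1.83 and 3.16 CPM in wt/wt and 22.7, 60.1 and 29.4 CPM in fx/fx. Its wt/wt libraries differed among themselves (SD of 1.37 on the log2 scale), yet the genotypes did not overlap (edgeR log2 fold change 2.73 with SE 0.74, adjusted p = 0.212). Man1a, a mannosidase of N-glycan trimming in the Golgi (53904785 to 54076609, minus strand), measured 14.9, 26.2 and 23.9 CPM in wt/wt and 93.4, 29.4 and 73.1 CPM in fx/fx (edgeR adjusted p = 0.210). Its fx2 value was just above the highest wt/wt library. Gstt1, a theta class glutathione transferase, measured 22.9, 24.7 and 27.2 CPM in wt/wt and 64.5, 22.0 and 76.7 CPM in fx/fx, so fx2 did not share the high value. Cnn2 measured 15.5, 19.3 and 14.1 CPM in wt/wt and 41.5, 26.2 and 33.1 CPM in fx/fx. The 75 to 80 Mb bin, which holds Cfd, Cnn2, Gstt1 and the Col6a1, Col6a2 and Col18a1 genes, had 9 members above every wt/wt library, and its median over 63 members was still -0.51.

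At the other end, the 10 lowest members in fx1 ranged from -3.03 to -1.68. Susd2, a sushi domain surface protein gene, measured 18.3, 46.1 and 29.6 CPM in wt/wt and 3.54, 15.8 and 8.17 CPM in fx/fx. Slc5a8, a transporter of short-chain fatty acids, measured 15.1, 95.1 and 86.0 CPM in wt/wt and 6.68, 13.4 and 20.6 CPM in fx/fx. For Susd2 all fx/fx libraries were below the wt/wt libraries, and for Slc5a8 fx3 overlapped wt1. Lrrc75b measured 203, 129 and 78.9 CPM in wt/wt and 36.9, 65.9 and 27.5 CPM in fx/fx, again without overlap (edgeR adjusted p = 0.199). Thop1, a metalloendopeptidase of peptide turnover (81070035 to 81082559, plus strand), was the most steady of the 10 in wt/wt: it measured 116, 125 and 114 CPM there and 31.4, 94.1 and 73.9 CPM in fx/fx.

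Arg1, arginase 1, was at -1.90 in fx1, but its wt/wt libraries ranged from 87.1 to 555 CPM. Gstt2, at -2.06, is a paralog of Gstt1 in the same gene cluster and went the opposite way in fx1. It measured 10.5, 26.0 and 21.8 CPM in wt/wt and 4.31, 3.32 and 25.7 CPM in fx/fx. Cenpw, a centromere protein gene, Ggt1, a glutathione-degrading enzyme gene, and Fbxo5, an inhibitor of the anaphase-promoting complex, were at -1.98, -1.85 and -1.68. Rpl41 was at -1.72, and its counts can be uncertain because processed copies of ribosomal protein genes share its sequence.

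The members nearest the chromosome median show what a typical member did. Ppil4, a cyclophilin family gene, measured 32.5, 28.6 and 34.5 CPM in wt/wt and 20.8, 30.8 and 27.7 CPM in fx/fx. Zwint, a kinetochore gene, Ncoa7, a nuclear receptor coactivator, Gng7, a G protein gamma subunit, and Xpot, the tRNA exporter, lay close to the chromosome median in fx1. Near the floor, Mdm1 (mean log2 CPM 3.04) and Izumo4 (3.07) just passed, at -0.59 and -1.09 in fx1. Mettl25 (3.00) and Bicc1 (2.97) just failed, at -0.82 and -0.01.

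The genotypes were compared over 3 fx/fx and 3 wt/wt libraries. After adjustment over 16752 genes, edgeR's quasi-likelihood test called 0 genes (0% of those tested), and 2381 had an unadjusted p under 0.05. Among the 483 members, 0 were called, 29 (6%) were lower at an unadjusted p under 0.05 and 20 (4.14%) higher, where 6.04% and 8.18% of all genes were. DESeq2 called 831 of 18033 genes, 1.72% lower and 2.89% higher, and of the members 6 (1.24%) lower and 11 (2.28%) higher. Besides the matrix genes named above, the members that DESeq2 called included Esr1, Cfd, Man1a, Susd2 and Lrrc75b, none of which edgeR called. These fits contain fx1, on which the chromosome was selected, so nothing is read from the counts of members.

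A further fit left out fx1, the library on which the chromosome was selected, but kept the wt/wt libraries that the choice had used. With fx2 and fx3 against the wt/wt libraries, 19 members (3.93%) were lower and 29 (6%) higher at an unadjusted p under 0.05. Over 17155 genes, 4.26% were lower and 5.55% higher. Both shares of the members lay near those of all genes. No gene was called after adjustment in that edgeR fit (0 genes). Without fx1, members lower at an unadjusted p went from 29 to 19, and without fx2 to 45, while without wt1 both the lower and the higher counts were smaller, at 19 and 12.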

How the data were processed

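RNA of 6 mouse tumors was sequenced, 3 CdGAP wt/wt and 3 CdGAP fx/fx, all NIC+. The deposited values are raw counts of read pairs per gene. Per the file headers, the authors made the counts with featureCounts 1.6.0 on the Ensembl release 93 annotation of GRCm38, with strand option 2, both ends aligned and chimeric pairs left out. Among the tools in the submitters' processing notes are STAR 2.5.1b and featureCounts 1.4.6, so the featureCounts version differs between these sources. Reads with several alignments are not set to be counted, so near-identical genes can lose reads.

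Gene types came from GENCODE M21, which matched 54165 of 54232 identifiers. All rows named a gene. The log2 CPM values were computed with edgeR 4.0.16 (R 4.3.3, TMM, prior count of 2), and each difference is the log2 CPM of a library less the mean of the wt/wt libraries. Genotypes were compared with edgeR's quasi-likelihood test (filterByExpr, robust, 2-sided, Benjamini-Hochberg over all genes, threshold 0.05). DESeq2 1.42.0, other scalings, floors, references, bin widths, a correction for GC content and length, and leaving out each library were alternatives. Steps were tested on simulated data.

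The chromosome, the gene lists and the rule for named genes were chosen with earlier results of these data known. The rule named the 10 members farthest above the wt/wt mean in fx1 among those above all 3 wt/wt libraries, the 10 lowest, the 5 nearest the median, in each list the 6 with the highest mean CPM and any above all wt/wt libraries, Erbb3, Esr1, Cdk4, Mdm2, Col6a1, Col18a1 and Hk1, and the 2 genes on either side of the floor, leaving out predicted genes. A gene that the rule covers is not reported here.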

Additional observations from a re-analysis of the deposited data

Results flagged for a closer look

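Chromosome 10 genes outside the set described above were also low in fx1. For 32 genes of the chromosome that are not protein-coding (mean log2 CPM over 1), the median difference from the wt/wt mean was -0.71 in fx1 (-0.39 in fx2, -0.07 in fx3), against -0.12, 0.02 and 0.03 in wt1, wt2 and wt3. In fx1, 84.4% of them were below 0, and 637 such genes of other chromosomes had a median of -0.22. For 84 protein-coding genes of the chromosome with a mean log2 CPM from 1 to 3, under the floor, the median was -0.36 in fx1 (0.17 in fx2, 0.04 in fx3), against -0.03, 0.08 and -0.10 in wt/wt, and 60.7% were below 0 in fx1. At the same level, 1459 genes of other chromosomes had a median of 0.26 in fx1. Both sets were named here because they lie outside the genes that defined the shift, and in both fx1 was below all 3 wt/wt libraries. They come from the library for which the chromosome was chosen, so they are not independent of the choice.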

How the results depend on the processing

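The fx1 median of -0.61 kept its sign under the 15 alternatives run and ranged from -0.68 (without wt2) to -0.58 (without wt3), and the share of members below 0 ranged from 82.7% to 89.9%. The lowest bin median ranged from -0.94 to -0.78. With a floor of 1, the IQR was 0.675, 98 members were at or above 0 and 60 were above every wt/wt library. With a floor of 5, these 2 counts were 35 and 17, 248 members were below every wt/wt library and the highest bin median, then of another bin, reversed to -0.31. With fx2 and fx3 as reference, the IQR was 0.503, 23 members were above the reference libraries and the highest bin median reversed to -0.25. It also reversed, to -0.44, with 10 Mb bins, and was 0.047 after the correction for GC content and length. Leaving out 1 library gave it values from 0.046 (without wt1) to 0.19. DESeq2 called 831 genes and 17 members where edgeR called 0 of either. With no filter on low counts, edgeR called 38 genes and 0 members. Leaving out each library gave 0 to 2 genes (2 without fx2), 0 members called, and 31 (without wt1) to 61 members (without fx2) at an unadjusted p under 0.05, where all libraries gave 49. The labels do not say whether the replicate numbers pair the samples. Per-gene deviations from the group mean correlated at -0.08, -0.09 and 0.06 between same-numbered libraries. Between libraries of different number they correlated at -0.22 to 0.28, and with 3 libraries per group these values cannot settle pairing. With the number as a replicate block edgeR called 0 genes and 0 members, with 50 members at an unadjusted p under 0.05. With 3 libraries per group and 1 shifted library, the values describe that library. Depth limits the members nearest the floor most, where 8 CPM is about 425 counts in fx1 and fewer in the other libraries.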
